A study of Mus musculus with 14 samples.

Results

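Histone deacetylases and the corepressor scaffolds that carry them were followed in the blood of mouse embryos. The genes were the class I deacetylases Hdac1, Hdac2, Hdac3 and Hdac8, the class IIa deacetylases Hdac5 and Hdac7, and the scaffolds Sin3a, Sin3b and Ncor1. These 9 genes were picked by name, and every probe set carrying the symbol of one of them was taken. Of the 9 genes 8 had a probe set, out of 18193 genes on the array, and Ncor1 is not analysed here. These 8 genes had 17 of the 45101 probe sets. Of the 17, 12 probe sets from 7 genes reached a log2 value of 6 on at least 3 of the 14 arrays and were tested. The other 5 (1 each of Hdac2, Hdac7, Hdac8, Sin3a and Sin3b) did not, and are termed dim.

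RNA was measured on 14 Affymetrix mouse arrays, as log2 intensities, in peripheral blood pooled from 8 to 10 embryos of one genotype at E12.5. The first cross, of chimeras with C57/Bl6 females, gave Cbfb+/MYH11 embryos, which carry the Cbfb-MYH11 fusion in place of 1 Cbfb allele (4 arrays), and their WT littermates, which are Cbfb+/+ (4 arrays). The second, of Cbfb+/- mice with each other, gave Cbfb-/- embryos, which lack both alleles (3 arrays), and Cbfb+/+ littermates (3 arrays). Cbfb is altered in the germ line, so no promoter or Cre limits the change to a cell type. Since each group's arrays are technical replicates by their labels, a p-value here reflects array-to-array spread, which may be technical. The number of separate pools is not given in the labels, so n counts arrays, and the precision over embryos may be lower than the SDs show.

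Class I deacetylases remove acetyl groups from histone tails and act inside large complexes. HDAC1 and HDAC2 sit in the SIN3, NuRD and CoREST complexes, while HDAC3 is activated by NCoR. Class IIa deacetylases have little activity on histones of their own, bind MEF2 factors and are held in the cytoplasm by 14-3-3 proteins once phosphorylated. CBFB is the partner subunit of the RUNX transcription factors, which can recruit SIN3A and deacetylases to the genes they repress. The CBFB-MYH11 fusion protein is the product of an inversion in human acute myeloid leukaemia, and HDAC8 and SIN3A have been reported to associate with it. The comparisons ask how the RNA of these genes stands in embryos with the fusion and in embryos without Cbfb, each set against its own littermates.

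Promoter windows of these genes were searched for the motif that RUNX factors bind. Windows from 250 bases before to 50 bases after a start site, credited to RefSeq (GRCm38.p6), were read for 7 of the 9 genes, Hdac2, Hdac5, Hdac7, Hdac8, Sin3a, Sin3b and Ncor1, in 12 windows. Hdac2, which changed most, and Sin3b, whose brightest probe set was lower in both mutants but not called, are printed. Both windows lie on the plus strand, Hdac2 at chr10:36974294-36974593 and Sin3b at chr8:72723020-72723319, and capitals mark a RUNX motif (TGTGGT or TGCGGT, searched on both strands).
Hdac2: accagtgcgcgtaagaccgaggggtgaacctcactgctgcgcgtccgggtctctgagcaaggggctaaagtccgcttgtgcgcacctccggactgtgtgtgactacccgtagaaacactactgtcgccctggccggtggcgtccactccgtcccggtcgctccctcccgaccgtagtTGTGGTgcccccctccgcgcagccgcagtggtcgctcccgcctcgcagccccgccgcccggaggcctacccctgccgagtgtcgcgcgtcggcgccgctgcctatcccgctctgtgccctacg
Sin3b: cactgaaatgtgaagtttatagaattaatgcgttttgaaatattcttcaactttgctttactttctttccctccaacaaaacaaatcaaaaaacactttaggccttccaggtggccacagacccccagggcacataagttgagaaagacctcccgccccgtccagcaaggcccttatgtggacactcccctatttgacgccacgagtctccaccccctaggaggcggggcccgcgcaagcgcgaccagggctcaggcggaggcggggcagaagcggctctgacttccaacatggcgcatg

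The Hdac2 window holds 1 RUNX match, TGTGGT, whose first base lies at -73 from the start site, and the Sin3b window holds none. Among the 12 windows 3 hold a RUNX motif, those of Hdac2 and Hdac8 and 1 of those of Ncor1, against 22.41% of all 32851 windows of that length. GATA motifs (AGATAA or TGATAA) were found in 2 of the 12 windows against 18.61% of all, and CCAAT in 4 against 37.41%. The GC box (GGGCGG) stood in 7 of the 12 windows against 35.66% of all. E2F motifs (TTTCGC or TTCCCGC or TTGGCGC) were in 0 of the 12 windows against 10.41% of all. All motifs were searched on both strands. The E2F motifs end alike in CGC, and motifs of different kinds can overlap at their ends. A match describes letters only and shows no binding, and no binding data belong to this series.

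Within the first cross the arrays fell into pairs. The SD across tested probe sets of the log2 difference between 2 arrays of a genotype was 0.115 to 0.278 for arrays 1 and 2 or 3 and 4, and 0.397 to 0.749 for the other combinations. In the second cross it was 0.199 to 0.221. Changes within each array pair are therefore given for the tested member probe sets of the first cross, and for list genes that are described with them. A call on a single array pair leaves out the spread between pairs. The arrays of a pair may come from the same pool, so such a call describes those arrays only. Over all 12190 tested probe sets the median change was 0.27 (log2) in Cbfb+/MYH11 against WT and 0.13 in Cbfb-/- against Cbfb+/+, and quantile normalization of the arrays moved these medians to -0.01 and -0.04.

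A probe set is called at a Benjamini-Hochberg adjusted p under 0.05 in limma, over all tested probe sets, together with a change of at least 1.5-fold. Among the 12 tested member probe sets 1 was called higher in Cbfb+/MYH11 against WT, where 30.4% of all tested probe sets were called higher. None was called lower in limma, against 5.64% of all. At an unadjusted limma p under 0.05, 4 were lower and 4 higher, where 7992 of all 12190 passed in either direction. The median change of the 12 was 0.11, against 0.27 over all tested probe sets. In Cbfb-/- against Cbfb+/+ 4 of the 12, from Hdac1, Hdac2 and Sin3a, were called higher against 19.8% of all. None was called lower by limma against 7.31% of all. At an unadjusted limma p under 0.05, 3 were lower and 6 higher, where 6479 of all 12190 passed in either direction. There the median of the 12 was 0.19, against 0.13 over all. Against these backgrounds none of these counts is read as particular to these genes. With the array pairs of the first cross and the arrays of each other group averaged to 6 putative pools, no member was called in any comparison. Of all 12190 tested probe sets 7 were then called in Cbfb+/MYH11 against WT and 0 in the other comparisons. The lack of member calls is therefore not particular to these genes. Blood is a mix of cells, so fewer cells of a type and less RNA per cell cannot be told apart.

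**Figure D1:**
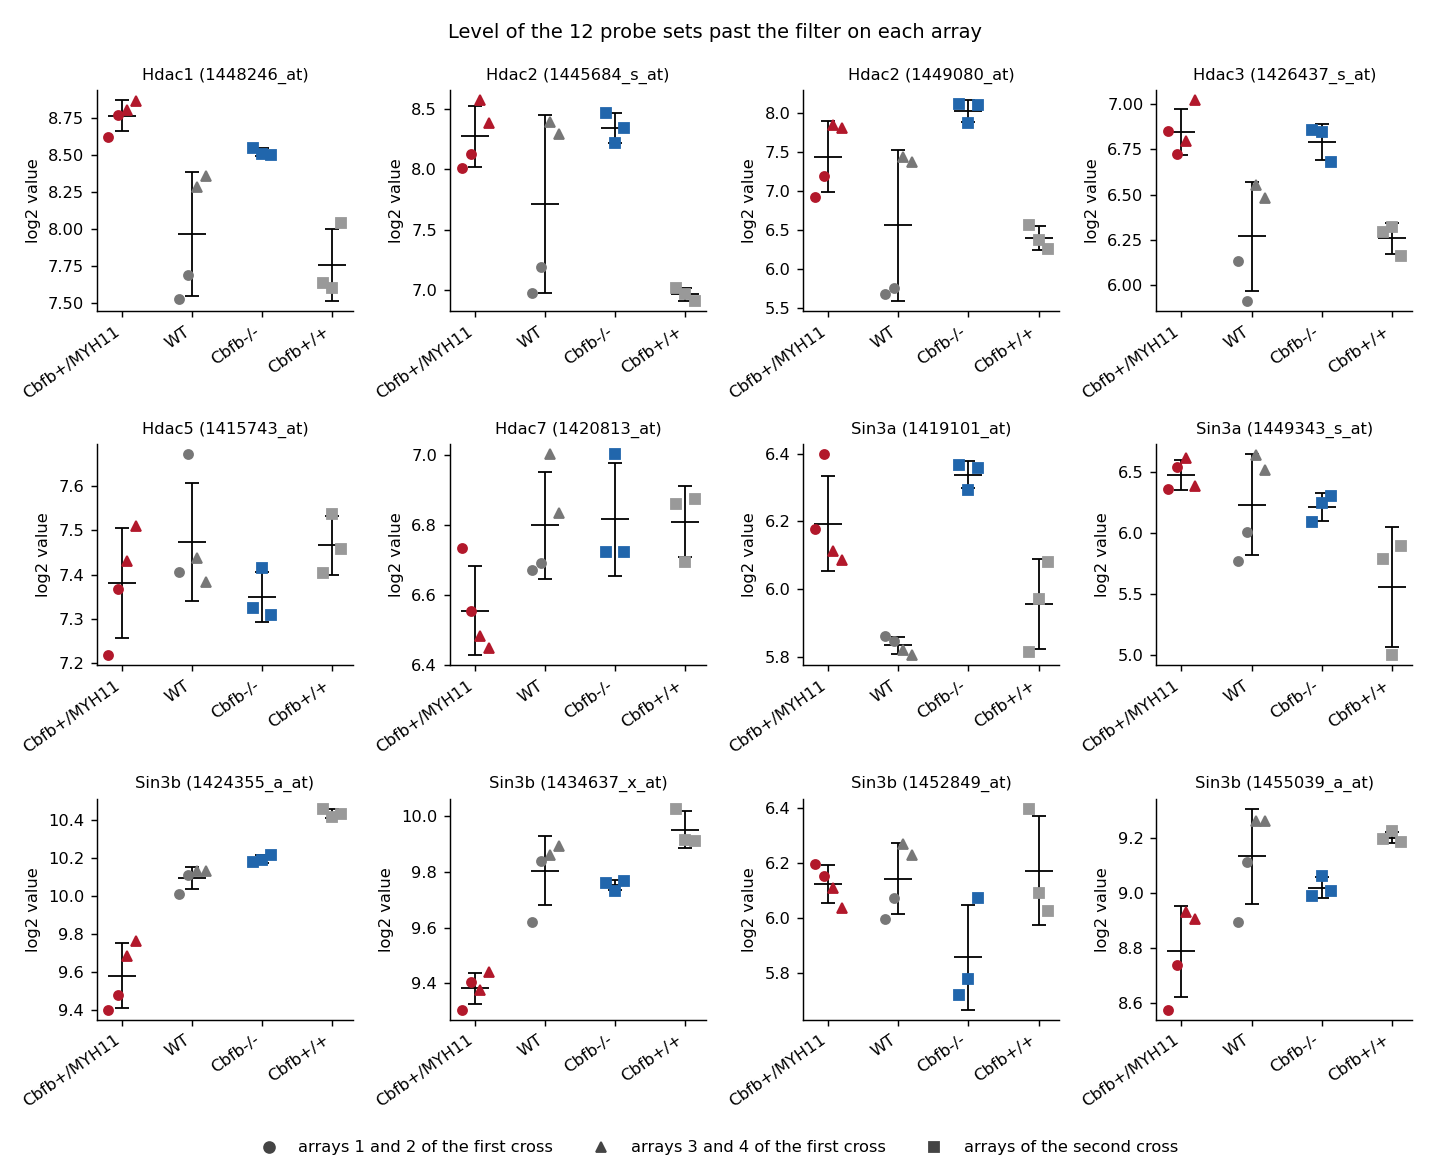
Log2 intensity (vertical axis) of the 12 tested probe sets on each of the 14 arrays, by genotype, with group means and SD as bars. Hdac1 and Hdac3 sit higher in both mutants than in their littermates, and Hdac2 does so in Cbfb-/-. Hdac2 overlaps between Cbfb+/MYH11 and WT, with WT arrays 3 and 4 far above WT arrays 1 and 2. On average 3 Sin3b probe sets sit lower in Cbfb+/MYH11 than in WT.

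Hdac1 encodes a catalytic subunit of the SIN3, NuRD and CoREST complexes. Its probe set (1448246_at) read 8.62, 8.77, 8.81 and 8.87 on Cbfb+/MYH11 arrays 1 to 4, against 7.53, 7.69, 8.29 and 8.36 on WT arrays 1 to 4. It read 8.55, 8.51 and 8.50 on the Cbfb-/- arrays, against 7.64, 7.60 and 8.04 on the Cbfb+/+ arrays. In each cross the mutant arrays all lay above the littermates, and WT arrays 3 and 4 lay nearer to the mutants than arrays 1 and 2. Hdac1 rose 1.74-fold in Cbfb+/MYH11 blood (95% interval 1.34 to 2.26; limma adjusted p = 0.0017), a call that ended after quantile normalization, at a log2 change of 0.40 against 0.80. It rose 1.70-fold in Cbfb-/- blood (95% interval 1.26 to 2.29; limma adjusted p = 0.0105), again not called after quantile normalization, at 0.53 against 0.76. The order of the means was Cbfb+/MYH11 8.77 ± 0.10, Cbfb-/- 8.52 ± 0.03, WT 7.97 ± 0.42 and Cbfb+/+ 7.76 ± 0.25 (log2, SD, n = 4, 3, 4 and 3). Neighbours at the lower end, Cbfb+/+ and WT, did not differ beyond their spread (-0.21, limma adjusted p = 0.450). Within the array pairs of the first cross the difference was 1.09 on arrays 1 and 2 and 0.52 on arrays 3 and 4, the second of which is not called (limma adjusted p = 0.00612, under 1.5-fold).

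Hdac2 is the close paralogue of Hdac1 and enters the same complexes. Its brighter probe set (1445684_s_at, whose probes can be shared by several transcripts) read 8.47, 8.22 and 8.34 on the Cbfb-/- arrays, against 7.02, 6.96 and 6.91 on the Cbfb+/+ arrays. The other tested probe set (1449080_at) read 8.11, 7.86 and 8.10 on the Cbfb-/- arrays, against 6.56, 6.37 and 6.25 on the Cbfb+/+ arrays. For both, every Cbfb-/- array stood more than 1 log2 unit above every Cbfb+/+ array. Hdac2 rose 2.60-fold (95% interval 1.61 to 4.20; limma adjusted p = 0.00558) and 3.10-fold (1.61 to 5.96; limma adjusted p = 0.0115) on these probe sets. After quantile normalization both calls stood, at log2 changes of 1.16 and 1.43 against 1.38 and 1.63. They were the largest changes among the tested member probe sets in either mutant, at percentiles 95.3 and 97.1 of all tested changes.

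In the first cross Hdac2 followed the array pairs. On Cbfb+/MYH11 arrays 1 to 4 1445684_s_at read 8.01, 8.13, 8.57 and 8.39, against 6.98, 7.19, 8.39 and 8.30 on WT arrays 1 to 4. The probe set 1449080_at read 6.92, 7.18, 7.84 and 7.81 on the Cbfb+/MYH11 arrays, against 5.68, 5.76, 7.43 and 7.36 on the WT arrays. WT arrays 3 and 4 were thus as high as Cbfb+/MYH11 arrays 1 and 2, and the groups overlap. Neither change was called over all arrays, at 0.56 (limma adjusted p = 0.0927) and 0.88 (limma adjusted p = 0.0585). On arrays 1 and 2 the differences were 0.99 and 1.34, both called, and on arrays 3 and 4 they were 0.14 and 0.43, neither called. These calls leave out the spread between the array pairs and do not measure that between pools of embryos. With the replicate number as a block, which pairs the arrays of the first cross, 1449080_at was called higher (limma adjusted p = 0.00312) at the same change. Without WT array 3 both probe sets were called, at 0.79 and 1.17, and without WT array 4 likewise, at 0.76 and 1.15. Leaving out Cbfb+/MYH11 array 1 also gave a call to 1449080_at, at 1.05, as did centring the arrays on their medians, at 0.99.

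The remaining Hdac2 probe set (1439704_at) was dim, between 3.11 and 3.67 on Cbfb+/MYH11 arrays, 3.16 and 3.69 on WT, 3.05 and 3.29 on Cbfb-/- and 3.39 and 3.63 on Cbfb+/+. It did not show the increase of the other 2 probe sets, with changes of -0.05 in Cbfb+/MYH11 and -0.32 in Cbfb-/- in a fit of all probe sets (limma adjusted p = 0.821 and 0.215).

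Hdac3 is the catalytic subunit of the NCoR complex. Its probe set (1426437_s_at) read 6.85, 6.72, 6.80 and 7.02 on Cbfb+/MYH11 arrays 1 to 4, against 6.13, 5.91, 6.55 and 6.48 on WT arrays 1 to 4. On the Cbfb-/- arrays it read 6.86, 6.85 and 6.68, against 6.29, 6.32 and 6.16 on the Cbfb+/+ arrays. The mutant arrays lay above the littermates in each cross without overlap. The changes of 0.58 and 0.54 passed the adjusted p (limma, 0.00236 and 0.0150) but not 1.5-fold, so neither is called. The first lies just under the fold threshold and was called without any one of 4 arrays (Cbfb+/MYH11 2 or 3, WT 3 or 4), at 0.60 to 0.67, and with centred arrays, at 0.69, while quantile normalization gave 0.32. The change in Cbfb-/- blood was called without Cbfb-/- array 3 or with centred arrays, at 0.59 in both settings. Within the array pairs of the first cross Hdac3 differed by 0.77 and 0.39, and the 2 wild-type groups stood at 6.26 ± 0.09 in Cbfb+/+ and 6.27 ± 0.30 in WT (SD, n = 3 and 4).

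Hdac8, a class I deacetylase that also acts on cohesin, was dim on all 14 arrays (1428933_at). It read 3.35 to 3.69 on Cbfb+/MYH11 arrays and 3.41 to 3.80 on WT, and 3.68 to 3.91 on Cbfb-/- arrays and 3.69 to 4.11 on Cbfb+/+. The groups overlap in both crosses, and at this signal no difference could be measured.

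Among the class IIa deacetylases, Hdac5 was nearly level over the 4 groups in the values as deposited. Its probe set (1415743_at) averaged 7.38 ± 0.12 in Cbfb+/MYH11 against 7.47 ± 0.13 in WT (log2, SD, n = 4 each), and 7.35 ± 0.06 in Cbfb-/- against 7.47 ± 0.07 in Cbfb+/+ (n = 3 each). The differences were -0.09 (95% interval -0.28 to 0.10; limma adjusted p = 0.373) and -0.12 (95% interval -0.34 to 0.10; limma adjusted p = 0.358). The first changes sign with centred arrays, to 0.02. After quantile normalization the 2 differences were -0.47 and -0.33, which passed the adjusted p (limma, 0.00232 and 0.0401) but not 1.5-fold. As deposited the first was -0.25 on arrays 1 and 2 of the first cross and 0.06 on arrays 3 and 4. Its group means spanned 0.125, the narrowest range among the members, and relative to the median of all probe sets the difference in Cbfb+/MYH11 was -0.36.

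Hdac7, a class IIa deacetylase with known roles in blood vessels and lymphocytes, had 1 tested and 1 dim probe set. The tested one (1420813_at) read 6.74, 6.55, 6.48 and 6.45 on Cbfb+/MYH11 arrays 1 to 4, against 6.67, 6.69, 7.002 and 6.83 on WT arrays 1 to 4. Only Cbfb+/MYH11 array 1 reached the WT range, and the difference of -0.24 was not called (limma adjusted p = 0.0572). After quantile normalization it was -0.52 and passed the adjusted p (limma, 0.00146) but not 1.5-fold. With centred arrays it was -0.13 (limma adjusted p = 0.296). In the values as deposited it was -0.04 on arrays 1 and 2 and -0.45 on arrays 3 and 4. On Cbfb-/- arrays the probe set read 6.72, 7.002 and 6.72, against 6.86, 6.69 and 6.88 on Cbfb+/+ arrays, with overlap and a difference of 0.01 that is -0.19 after quantile normalization. The dim probe set (1420812_at) read 4.98, 5.29, 5.06 and 5.01 on Cbfb+/MYH11 arrays, against 6.04, 5.71, 5.52 and 5.58 on WT. There the groups do not overlap, and in the fit of all probe sets the difference of -0.63 is called (limma adjusted p = 0.00166). It was -0.13 in Cbfb-/- blood (limma adjusted p = 0.598).

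**Figure D2:**
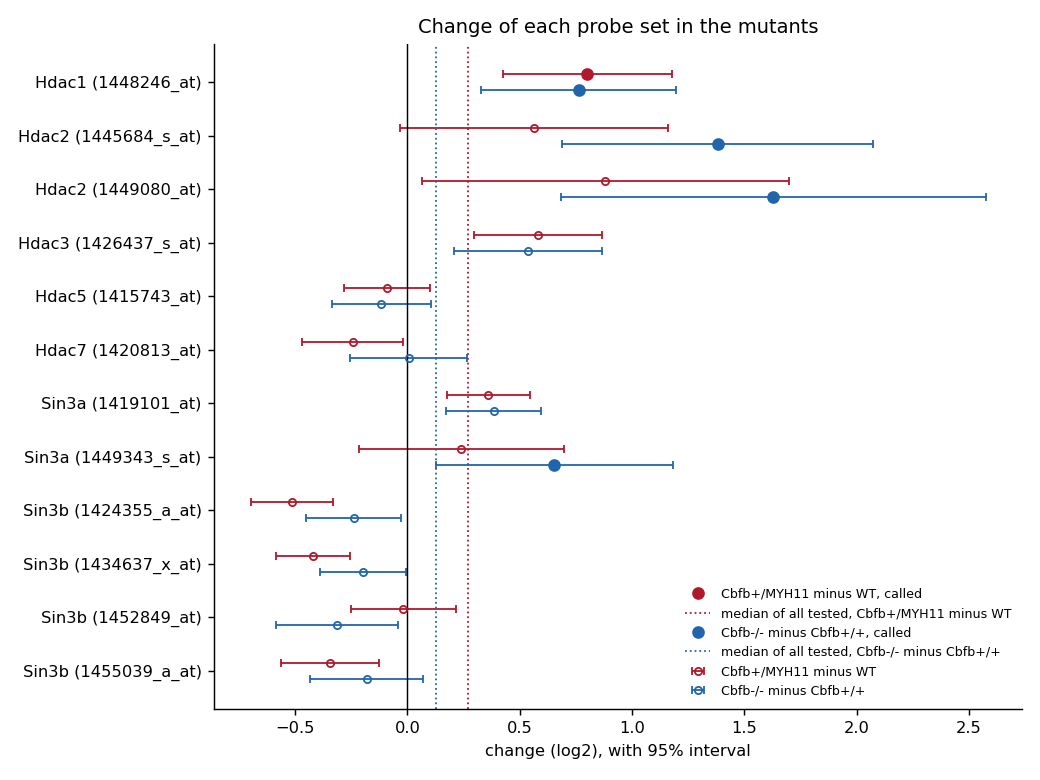
Log2 change with 95% interval of each of the 12 tested probe sets in Cbfb+/MYH11 against WT and in Cbfb-/- against Cbfb+/+, with lines at the median change of all tested probe sets. Hdac1 is called in both, the 2 Hdac2 probe sets and 1 of Sin3a in Cbfb-/-, and 3 Sin3b probe sets and that of Hdac7 lie below 0 with intervals that exclude it in Cbfb+/MYH11, as do 3 Sin3b probe sets in Cbfb-/-.

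Sin3a is the scaffold that joins sequence-specific repressors to HDAC1 and HDAC2. Its probe set 1419101_at read 6.18, 6.40, 6.11 and 6.09 on Cbfb+/MYH11 arrays 1 to 4, against 5.86, 5.85, 5.82 and 5.80 on WT arrays 1 to 4. On the Cbfb-/- arrays it read 6.37, 6.29 and 6.36, against 5.81, 5.97 and 6.08 on the Cbfb+/+ arrays. The mutants lay above their littermates on every array. The changes of 0.36 and 0.38 passed the adjusted p (limma, 0.00308 and 0.00943) and stayed under 1.5-fold. In Cbfb+/MYH11 the change lay 0.09 above the median of all probe sets, and after quantile normalization it was 0.20. Within the array pairs it was 0.43 on arrays 1 and 2 and 0.29 on arrays 3 and 4.

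The probe set 1449343_s_at of Sin3a read 6.09, 6.24 and 6.30 on the Cbfb-/- arrays, against 5.78, 5.00 and 5.89 on the Cbfb+/+ arrays. The groups do not overlap, and Cbfb+/+ array 2 stands well below the others. It rose 1.57-fold (95% interval 1.09 to 2.27; limma adjusted p = 0.0461), a call lost in 9 of the 14 fits that leave out 1 array (any Cbfb+/MYH11 or Cbfb-/- array, Cbfb+/+ 1 or 2), with no filter and after quantile normalization. Without Cbfb+/+ array 2 the change was 0.37 (limma adjusted p = 0.197), against 0.65. In the first cross it read 6.35, 6.53, 6.61 and 6.38 on the Cbfb+/MYH11 arrays, against 5.77, 6.01, 6.63 and 6.51 on WT, with overlap and a change of 0.24 (limma adjusted p = 0.337). On arrays 1 and 2 the difference was 0.56, and on arrays 3 and 4 it was -0.08. The dim Sin3a probe set (1419102_at) averaged 5.76 ± 0.18 in Cbfb+/MYH11 against 5.27 ± 0.09 in WT, and 5.89 ± 0.17 in Cbfb-/- against 4.92 ± 0.13 in Cbfb+/+. Neither pair of groups overlaps, and in the fit of all probe sets the changes were 0.49 (limma adjusted p = 0.00562, under 1.5-fold) and 0.98 (limma adjusted p = 3.80e-04, called).

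Sin3b, the second SIN3 scaffold, known for its part in leaving the cell cycle, was lower in Cbfb+/MYH11 than in WT on 3 of its 4 tested probe sets. The brightest (1424355_a_at) read 9.40, 9.48, 9.68 and 9.76 on Cbfb+/MYH11 arrays 1 to 4, against 10.01, 10.11, 10.13 and 10.13 on WT arrays 1 to 4. On Cbfb-/- arrays it read 10.18, 10.19 and 10.22, against 10.46, 10.41 and 10.43 on Cbfb+/+ arrays. In both crosses the mutant arrays lay below the littermates without overlap. The difference was -0.51 in Cbfb+/MYH11 (1.43-fold lower, 95% interval 1.26 to 1.62; limma adjusted p = 2.57e-04), just under the fold threshold. In Cbfb-/- it was -0.24 (limma adjusted p = 0.0640).

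The Sin3b probe set 1434637_x_at, some of whose probes may match other sequences, averaged 9.38 ± 0.06 in Cbfb+/MYH11 against 9.80 ± 0.12 in WT, and 9.75 ± 0.02 in Cbfb-/- against 9.95 ± 0.07 in Cbfb+/+ (log2, SD, n = 4, 4, 3 and 3). The third (1455039_a_at) averaged 8.79 ± 0.17 in Cbfb+/MYH11 against 9.13 ± 0.17 in WT, and 9.02 ± 0.04 in Cbfb-/- against 9.20 ± 0.02 in Cbfb+/+. In the first cross 1434637_x_at showed no overlap and 1455039_a_at did. Their differences there were -0.42 and -0.34 (limma adjusted p = 5.16e-04 and 0.0107), and in the second cross -0.20 and -0.18 (limma adjusted p = 0.0850 and 0.214). None of the 3 passed 1.5-fold over all arrays in the values as deposited, whereas after quantile normalization all 3 were called lower in Cbfb+/MYH11, at -0.81, -0.74 and -0.72. In Cbfb-/- the 3 were then at -0.37, -0.36 and -0.37. These passed the adjusted p (limma, 0.00441, 0.00297 and 0.00571) but not 1.5-fold. Relative to the median of all probe sets the deposited changes in Cbfb+/MYH11 lay at -0.78, -0.69 and -0.61, at percentiles 7.60, 11.1 and 15.2 of all tested changes. All 3 lay below 0 in both array pairs (arrays 1 and 2, then 3 and 4), at -0.62 and -0.41 for 1424355_a_at, -0.37 and -0.47 for 1434637_x_at, and -0.35 and -0.34 for 1455039_a_at.

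The dimmest tested Sin3b probe set (1452849_at) read 6.04 to 6.20 on Cbfb+/MYH11 arrays against 5.996 to 6.27 on WT, and 5.72 to 6.07 on Cbfb-/- against 6.03 to 6.40 on Cbfb+/+. Here the groups overlap in both crosses. The difference of -0.02 in Cbfb+/MYH11 (limma adjusted p = 0.889) becomes 0.09 with centred arrays, and was 0.14 on arrays 1 and 2 and -0.18 on arrays 3 and 4. That of -0.31 in Cbfb-/- was not called (limma adjusted p = 0.0580). After quantile normalization it was -0.46 (limma adjusted p = 0.0111), under 1.5-fold. The remaining Sin3b probe set (1425630_at) was dim, at 5.31 to 5.48 on Cbfb+/MYH11 against 5.31 to 5.94 on WT and 5.60 to 6.09 on Cbfb-/- against 5.58 to 5.80 on Cbfb+/+.

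**Figure D3:**
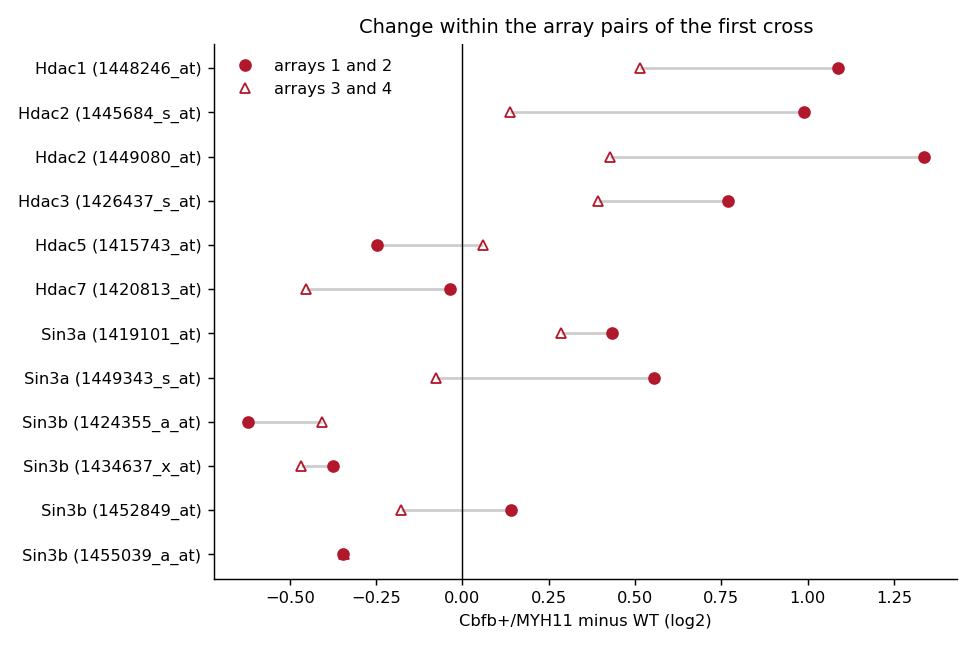
Difference Cbfb+/MYH11 minus WT (log2) of the 12 tested probe sets on arrays 1 and 2 and on arrays 3 and 4 of the first cross. Hdac1, Hdac2 and Hdac3 differ more on arrays 1 and 2, with 1.34 against 0.43 for Hdac2 1449080_at, while the 3 brighter Sin3b probe sets lie below 0 in both pairs.

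The 2 effects were then set against each other. The difference of the effects (Cbfb+/MYH11 minus WT, less Cbfb-/- minus Cbfb+/+) was called for 0 of the 12 probe sets in limma. An unadjusted limma p under 0.05 was reached by 0 of the 12, and by 4522 of all 12190 tested probe sets. Of all tested probe sets 14.7% were called with a positive difference and 5.89% with a negative one. Its widest values were those of Hdac2, -0.82 (95% interval -1.73 to 0.10; limma adjusted p = 0.181) and -0.75 (95% interval -2.00 to 0.50; limma adjusted p = 0.380). With the replicate number as a block the first was called (limma adjusted p = 0.0391), as it was without WT array 1, at -1.06. On arrays 3 and 4 of the first cross both were called, at -1.24 and -1.20, and on arrays 1 and 2 neither was, at -0.39 and -0.29. Such calls leave out the spread between the array pairs. For Hdac1 and Hdac3 the difference was 0.04 each, with 95% intervals of -0.54 to 0.61 and -0.39 to 0.48, and quantile normalization turns both signs, to -0.13 and -0.04. Sin3b 1424355_a_at gave -0.27 (95% interval -0.56 to 0.01; limma adjusted p = 0.142). After quantile normalization it gave -0.44 (limma adjusted p = 0.0100). Sin3b 1434637_x_at and 1455039_a_at were then at -0.38 and -0.35 (limma adjusted p = 0.0133 and 0.0488). Sin3b 1452849_at was at 0.28 (limma adjusted p = 0.249), and all of these stayed under 1.5-fold.

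The wild-type groups of the crosses had a called difference in 1 member probe set. Sin3a 1449343_s_at was called lower in Cbfb+/+ than in WT (-0.67, limma adjusted p = 0.0458), where 6.33% of all probe sets were called lower and 5.68% higher. The call stood only without WT array 1, WT array 2 or Cbfb+/+ array 3, was lost in the other 11 of the 14 fits that leave out 1 array, and without Cbfb+/+ array 2 the value was -0.39. No member probe set was called higher by limma. At an unadjusted limma p under 0.05, 1 was higher and 2 lower, where 4585 of all 12190 passed in either direction. Sin3b 1424355_a_at, at 10.43 ± 0.02 in Cbfb+/+ against 10.10 ± 0.06 in WT, differed by 0.34 (limma adjusted p = 0.0166), under 1.5-fold. Hdac2 1445684_s_at differed by -0.75, not called as deposited (limma adjusted p = 0.0833) but called after quantile normalization, at -0.75 (limma adjusted p = 0.0401). Its Cbfb+/+ arrays stood at the level of WT arrays 1 and 2 (6.96 ± 0.06 against 6.98 and 7.19), well under WT arrays 3 and 4. The other tested Hdac2 probe set (1449080_at) differed from this. There the Cbfb+/+ arrays, at 6.25 to 6.56, lay above WT arrays 1 and 2 (5.68 and 5.76) and below WT arrays 3 and 4 (7.43 and 7.36). Of the 51 tested genes of the partner lists 1 was called higher in Cbfb+/+ than in WT (Mbd3, 1.05) and 9 lower, Arid4b (-1.63), Chd3, Sinhcaf (-0.82), Ep300 (-0.81), Crebbp (-0.90), Kat6a (-0.69), Sirt1 (-0.79), Gatad2b (-0.60) and Phf21a (-0.59).

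Other cells and cell division differed between the arrays as well. Mean log2 values of 9 proliferation genes such as Mki67 were 9.42, 9.44, 9.30 and 9.30 on Cbfb+/MYH11 arrays 1 to 4, against 7.27, 7.34, 8.38 and 8.34 on WT arrays 1 to 4. They were 9.27, 9.14 and 9.18 on Cbfb-/- arrays, against 8.44, 8.37 and 8.39 on Cbfb+/+ arrays. In each cross the mutant arrays were above the littermates, as for Hdac1, and WT arrays 3 and 4 were above WT arrays 1 and 2, as for Hdac1 and Hdac2. Neural markers such as Sox2 averaged 5.55, 5.41, 7.18 and 7.25 on Cbfb+/MYH11 arrays, against 3.96, 4.02, 5.64 and 5.65 on WT. They averaged 8.22, 8.06 and 8.22 on Cbfb-/- arrays, against 4.62, 4.46 and 4.41 on Cbfb+/+. These were highest in Cbfb-/- and, in the first cross, higher on arrays 3 and 4 than on arrays 1 and 2 of either genotype. Their part in the Hdac1, Hdac2 and Hdac3 results was not tested.

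The marker lists give the counts behind these levels. Of all tested probe sets 30.4% were called higher and 5.64% lower in Cbfb+/MYH11, and 19.8% and 7.31% in Cbfb-/-. Of 9 tested proliferation genes 9 rose in Cbfb+/MYH11 (limma) and 5 in Cbfb-/-, and of 8 neural markers 3 and 8 rose. The summed level of the neural markers ranged from 9.25 to 10.77 (log2) in Cbfb+/MYH11 against 7.89 to 9.68 in WT, and from 11.52 to 11.64 in Cbfb-/- against 8.27 to 8.40 in Cbfb+/+. Summed proliferation genes ranged from 12.77 to 12.93 in Cbfb+/MYH11 against 10.90 to 11.84 in WT, and from 12.51 to 12.60 in Cbfb-/- against 11.85 to 11.93 in Cbfb+/+. Macrophage markers fell in 7 of 10 tested genes in Cbfb+/MYH11 and in 10 of 10 in Cbfb-/-, and megakaryocyte and platelet markers in 7 and 9 of 10. Mast cell and basophil markers rose in 4 of 4 in Cbfb+/MYH11, with 1 of 4 lower in Cbfb-/-, and progenitor markers rose in 4 of 4 and fell in 3 of 4. Liver and visceral endoderm markers fell in 4 of 7 in Cbfb+/MYH11 and rose in 5 of 7 in Cbfb-/-, and mesenchyme markers fell in 1 of 6 and rose in 1 of 6. No endothelial marker of 5 reached the filter. Red cell markers defined the tissue, with the embryonic globin Hbb-bh1 between 13.96 and 14.50 on every array, and 3 of 8 tested erythroid genes rose in Cbfb+/MYH11 and 0 were called in Cbfb-/- by limma. In Cbfb+/MYH11 the 3 of 8 neural and 3 of 8 erythroid genes lie near the 30.4% of all and are not read as particular to these lists.

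**Figure D4:**
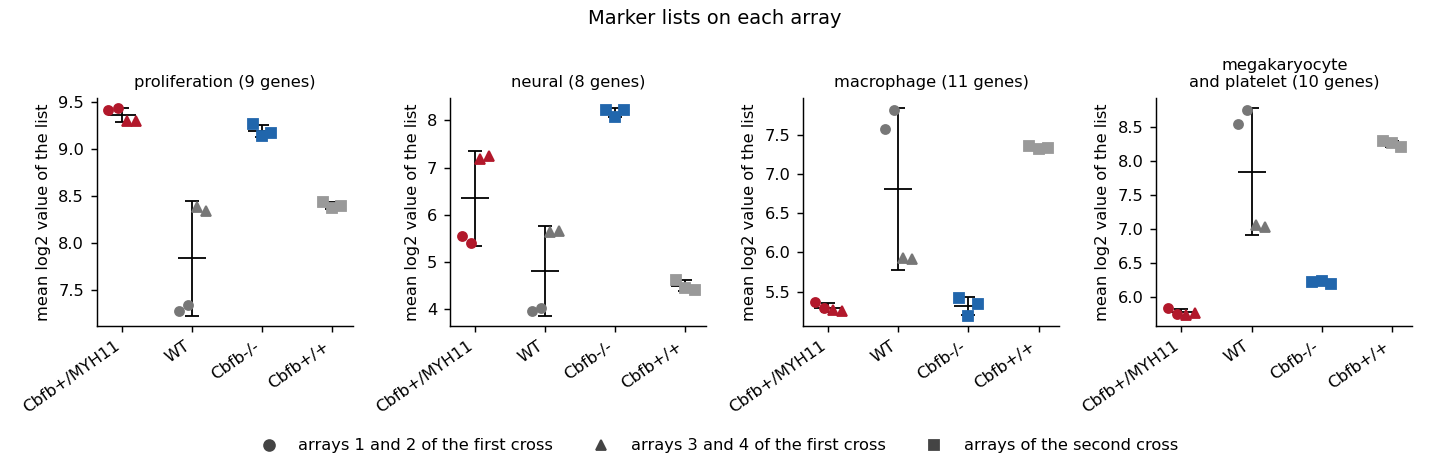
Mean log2 value of the proliferation, neural, macrophage and megakaryocyte markers on each of the 14 arrays, with group means and SD as bars; circles and triangles are the array pairs of the first cross. Proliferation markers stand higher in both mutants than in their littermates, and macrophage and platelet markers lower, while neural markers stand higher in Cbfb-/- and overlap between Cbfb+/MYH11 and WT.

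The genes whose pattern was most like a member were sought for the 3 members with the widest span of group means. For Hdac2 (1445684_s_at) these were Apex1, a base excision repair enzyme, Hnrnph3, a splicing protein, and Matr3, a nuclear matrix protein, with Pearson r of 0.993, 0.988 and 0.988 across the 14 arrays. Hdac1 ran closest to Rpa1, a single-strand DNA binding subunit, Ipo7, a nuclear import receptor, and Brca1, a DNA repair protein (r = 0.982, 0.981 and 0.979). Sin3a (1449343_s_at) ran closest to Zzz3, Aff4 and Morc2a (r = 0.917, 0.912 and 0.911). Its r with the other tested Sin3a probe set (1419101_at) was only 0.247, so this likeness is that of 1 probe set. Its span of group means is widened by the low Cbfb+/+ array 2 (5.00, against 5.78 and 5.89). These likenesses are descriptions over 14 arrays that share their genotype groups and array pairs, and no test belongs to them.

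Partner subunits of the complexes were followed as lists, in which no gene was called in either mutant by limma with the 6 putative pools. With these pools 7 of all 12190 tested probe sets were called in Cbfb+/MYH11 and 0 in Cbfb-/-. Among 12 tested SIN3 subunits 4 rose in Cbfb+/MYH11 and 0 fell (median change 0.18, against 0.27 over all probe sets, of which 30.4% were called higher), and in Cbfb-/- 4 rose and 1 fell (median 0.36, against 0.13 over all, with 19.8% called higher and 7.31% lower). Rbbp7, a histone-binding subunit that SIN3 and NuRD share, was at 10.53, 10.50, 10.86 and 10.95 on Cbfb+/MYH11 arrays 1 to 4, against 8.82, 8.97, 9.74 and 9.71 on WT, with no overlap. It rose by 1.40 (log2) in Cbfb+/MYH11 and 0.98 in Cbfb-/-. Sap30, which bridges SIN3 and HDAC1, rose by 0.69 and 0.73, both calls lost after quantile normalization. Rbbp4 (0.61) and Brms1l (0.60) rose in Cbfb+/MYH11, and both calls ended after quantile normalization, at 0.42 each. Sinhcaf (1.00) and Sap130 (0.69) rose and Sap30l (-0.78) fell in Cbfb-/-, with Sap130 at 0.55 and not called after quantile normalization. The calls of Rbbp4 and Brms1l were also lost without WT array 1 or 2 or Cbfb+/MYH11 array 3 or 4, and that of Sap130 without Cbfb-/- array 1 or Cbfb+/+ array 1. On arrays 3 and 4 of the first cross Rbbp4 differed by 0.50 and Brms1l by 0.23, and on arrays 1 and 2 Sap30 differed by 0.47, none of them called.

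Of the NCoR complex 3 subunits were tested. Tbl1x, an exchange factor of the complex, rose by 1.24 in Cbfb+/MYH11 and by 1.27 in Cbfb-/- (limma adjusted p = 0.00279 and 0.0104). It read 7.17, 7.37, 7.49 and 7.54 on Cbfb+/MYH11 arrays, against 5.37, 5.57, 6.86 and 6.82 on WT, so that WT arrays 3 and 4 again stood above WT arrays 1 and 2. Gps2 (0.58) and Tbl1xr1 (-0.18) were not called in Cbfb+/MYH11, nor in Cbfb-/- (0.14 and -0.42). In Cbfb+/MYH11 2 of the 3 were called, rather than 1, without Cbfb+/MYH11 array 3 or 4, without WT array 1 or 2, or with centred arrays. The median of the 3 was 0.58 in Cbfb+/MYH11 and 0.14 in Cbfb-/-, against 0.27 and 0.13 over all. With all arrays 30.4% of all tested probe sets were called higher in Cbfb+/MYH11 and 19.8% in Cbfb-/-.

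In the NuRD and CoREST list 4 of 15 tested genes had a called difference between the mutants, 2 positive and 2 negative, against 14.7% and 5.89% of all tested probe sets. Rcor1, the CoREST scaffold, read 8.36, 8.18, 8.04 and 7.99 on Cbfb+/MYH11 arrays, against 6.89, 7.17, 6.97 and 6.82 on WT. On Cbfb-/- arrays it read 6.41, 6.69 and 6.31, against 6.44, 6.26 and 6.57 on Cbfb+/+. It stood clear of WT in the first cross and overlapped in the second. Rcor1 rose by 1.18 in Cbfb+/MYH11, was at 0.04 in Cbfb-/- and gave a called difference of 1.14 (limma adjusted p = 6.43e-04). Rcor2, its paralogue, showed the opposite order, with 6.03, 5.84, 6.26 and 6.28 on Cbfb+/MYH11 arrays against 6.18, 5.88, 6.23 and 6.06 on WT. On Cbfb-/- arrays it read 7.56, 7.61 and 7.22, against 5.98, 6.18 and 6.22 on Cbfb+/+ arrays. Rcor2 rose by 1.33 in Cbfb-/-, was at 0.01 in Cbfb+/MYH11, and its difference of -1.32 was called. Chd3, a NuRD remodeller, rose by 1.45 in Cbfb-/- and was at -0.26 in Cbfb+/MYH11, with a called difference of -1.71. Chd3 was also called lower in Cbfb+/+ than in WT (-1.12, limma adjusted p = 0.00242), and its change in the first cross was 0.09 on arrays 1 and 2 and -0.60 on arrays 3 and 4. In Cbfb+/MYH11 3 of 15 tested genes of the list rose (Rcor1, Mta2 by 0.84 and Mbd3 by 0.70) and 0 fell, with a median of 0.05, where 30.4% of all were called higher and the median was 0.27. In Cbfb-/- 4 rose (Rcor2, Chd3, Mta1 by 1.88 and Mbd3 by 0.66) and 0 fell, with a median of 0.38, where 19.8% of all were called higher and the median was 0.13. Quantile normalization ended the calls of Mta2 (0.48) and Mbd3 (0.47 and 0.44). Without WT array 1 the Mbd3 change in Cbfb+/MYH11 was 0.57 and not called, and without WT array 3 the list had 5 called genes there. In that last setting 4198 of all 12190 tested probe sets were called higher and 812 lower.

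**Figure D5:**
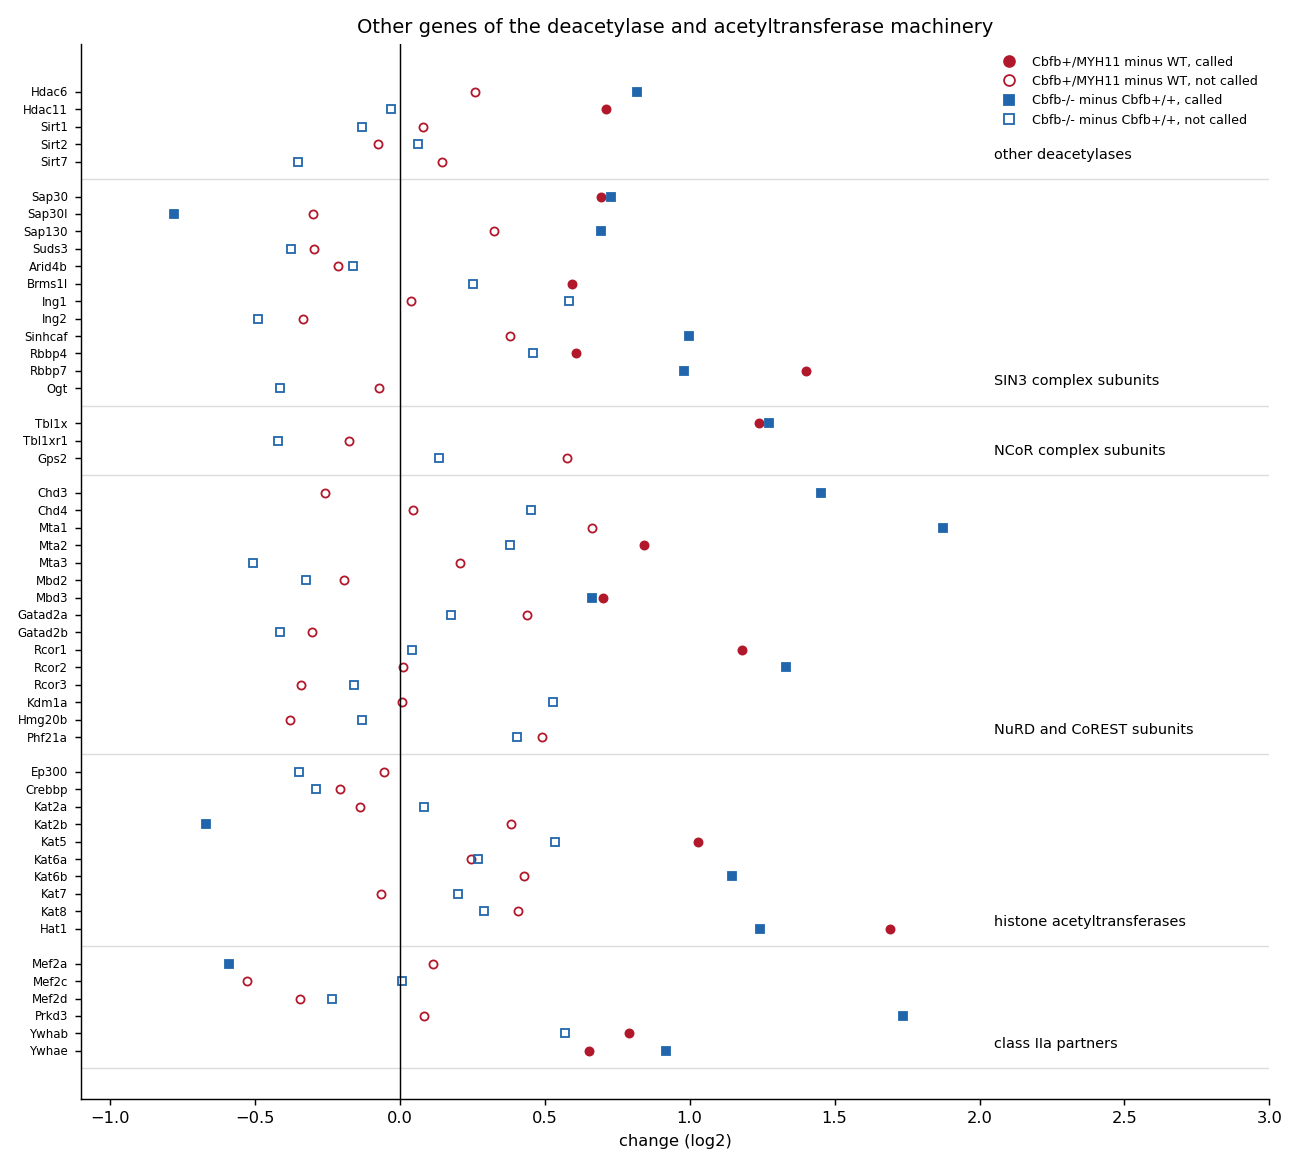
Log2 change of each tested gene of 6 lists, in Cbfb+/MYH11 against WT and in Cbfb-/- against Cbfb+/+, with called genes filled and a line at 0. In the NuRD and CoREST list Rcor1 is filled only in Cbfb+/MYH11, and Rcor2, Chd3 and Mta1 only in Cbfb-/-. Genes of other lists, such as Hat1, Rbbp7 and Tbl1x in Cbfb+/MYH11 and Prkd3 in Cbfb-/-, changed as much or more.

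Among the opposing histone acetyltransferases 2 of 10 rose in Cbfb+/MYH11, Hat1 by 1.69 and Kat5 by 1.03, and 0 fell (median 0.32, against 0.27 over all probe sets, of which 30.4% were called higher). In Cbfb-/- Hat1 rose by 1.24, Kat6b by 1.15, and Kat2b fell by 0.67 (median 0.23, against 0.13 over all, with 19.8% called higher and 7.31% lower). Kat2b, the PCAF acetyltransferase, differed between the mutants by 1.05, with 0.38 in Cbfb+/MYH11. Hat1, which acetylates newly made histones, lost its call in Cbfb-/- without Cbfb-/- array 1 or 3 or Cbfb+/+ array 2 or 3, at 1.18 to 1.25. Of 5 other tested deacetylases Hdac11 rose by 0.71 in Cbfb+/MYH11 (0.34 and not called after quantile normalization) and Hdac6, a cytoplasmic tubulin deacetylase, rose by 0.82 in Cbfb-/-, and 0 fell in either. Their medians were 0.15 and -0.03, against 0.27 and 0.13 over all probe sets.

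Partners of the class IIa enzymes were called in 2 of 6 tested genes in Cbfb+/MYH11 and 3 of 6 in Cbfb-/-, with medians of 0.10 and 0.29 against 0.27 and 0.13 over all probe sets. Both in Cbfb+/MYH11 were higher, where 30.4% of all were, and in Cbfb-/- 2 were higher and 1 lower, where 19.8% and 7.31% of all were. The 14-3-3 gene Ywhae rose by 0.65 and 0.92, and Ywhab rose by 0.79 in Cbfb+/MYH11. Without WT array 1 these values in Cbfb+/MYH11 were 0.47 and 0.58, neither called, the first was lost without WT array 2 too, at 0.54, and quantile normalization ended both calls too. The kinase gene Prkd3 rose by 1.73 in Cbfb-/-, and Mef2a, a transcription factor bound by class IIa deacetylases, fell by 0.59. The Mef2a call was lost without Cbfb-/- array 2 or 3 or Cbfb+/+ array 1 or 2, at -0.56, -0.45, -0.54 and -0.53, and with centred arrays. On arrays 3 and 4 of the first cross Ywhae and Ywhab differed by 0.36 and 0.42, neither called.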

How the data were processed

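Per the labels, total RNA of pooled embryonic blood was extracted with RNA-Stat 60 and labelled with biotin in 1 cycle. Per the submitters' processing notes, the authors used RMA (Affymetrix Expression Console, versions not given) to make the deposited log2 values. These cover 45101 probe sets, were not normalized again for the results, and hold 0 columns of other series. Symbols came from the platform table, in which 34945 carried 1 symbol, 932 several, 64 were controls and 9160 had no symbol here.

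Probe sets with a log2 value of at least 6 on at least 3 arrays (12190) were fitted with limma 3.58.1 in R 4.3.3, as 4 groups in 1 model with no covariate (residual degrees of freedom 10, prior 2.70). P-values were adjusted by Benjamini and Hochberg over all of them. A call needs an adjusted p under 0.05 and 1.5-fold. The fit was run on simulated data with arrays drawn independently. These held no array pairs, so they do not show its error rates for the arrays here. Dim members were read from a fit of all probe sets but controls. The members, the gene lists and the tests were chosen with earlier results of these data known. The lists are other deacetylases, SIN3, NCoR, and NuRD and CoREST subunits, acetyltransferases, class IIa partners, and 10 marker lists, each gene by its brightest probe set. All member probe sets, the called genes of the pathway lists, and the 3 genes most like each of 3 members are named; Gps2, Tbl1xr1 and the marker genes were named after their values were seen.

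Same-numbered arrays of the first cross, numbered in the labels, deviated together from their group means (r = 0.522, 0.410, 0.496 and 0.500 across probe sets), but so did the other array of a pair, and arrays of different pairs gave down to -0.521. In the second cross r was 0.0186, 0.00939 and 0.0344. Other filters, scalings, probe set rules, blocks, pools and arrays left out were tried. Promoter windows came from a RefSeq table (GRCm38.p6).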

Additional observations from a re-analysis of the deposited data

Results flagged for a closer look

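In 1 of 24 groups of 4 arrays tested for a single distant array, the gap was too wide by Dixon's 95% criterion: Sin3b 1424355_a_at read 10.01 on WT array 1, against 10.11 to 10.13 on the other WT arrays. Chance gives such a gap in about 1 in 20 groups.

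The effects of the 2 mutants differed, by the limma test of the difference itself, for 8 of the 51 tested genes of the pathway lists, 5 with a positive and 3 with a negative difference, against 14.7% and 5.89% of all tested probe sets. The difference (log2, Cbfb+/MYH11 effect less Cbfb-/- effect) was 1.14 for Rcor1, 1.05 for Kat2b, 0.74 for Hdac11, 0.71 for Mta3 and 0.71 for Mef2a. It was -1.71 for Chd3, -1.32 for Rcor2 and -0.62 for Sinhcaf. Mta3 itself changed by 0.21 in Cbfb+/MYH11 and by -0.51 in Cbfb-/-, neither called. Quantile normalization ended the call for Hdac11 (0.58), Mta3 (0.53) and Mef2a (0.51), and centring the arrays that for Sinhcaf (-0.56). Without Cbfb+/+ array 2 the difference for Sinhcaf was -0.49, and without Cbfb-/- array 3 that for Mef2a was 0.56, neither called. Both also lost the call with no filter and in 8 or more of the 14 fits that leave out 1 array.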

How the results depend on the processing

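With the 14 arrays as deposited, 1 member probe set was called in Cbfb+/MYH11 against WT, 4 in Cbfb-/- against Cbfb+/+, 0 in the difference of the effects and 1 in Cbfb+/+ against WT. For Cbfb+/MYH11 against WT the count became 2 with no filter, 3 after quantile normalization (all Sin3b, lower), 3 with centred arrays (all higher), 2 with the replicate block and 2 with the array pair block (chosen after seeing the data). It was 0 with 6 pools, 5 on arrays 1 and 2 of the first cross, 0 on its arrays 3 and 4, and 1 to 4 when 1 array was left out (4 without WT array 3 or 4, and 2 without Cbfb+/MYH11 array 1, 2 or 3). For Cbfb-/- against Cbfb+/+ it became 2 after quantile normalization and 0 with 6 pools. The difference of the effects gave 1 with the replicate block, 2 with the array pair block, 2 on arrays 3 and 4, and 0 to 1 when 1 array was left out (1 without WT array 1). Cbfb+/+ against WT gave 2 after quantile normalization, 3 on WT arrays 3 and 4, and 0 to 2 when 1 array was left out (2 without WT array 1 or 2). It gave 0 with no filter, with a filter at 7, with centred arrays, with gene means, with 6 pools and with only the groups compared. Pools leave few degrees of freedom; the other causes were not tested. Hdac2 1449080_at in Cbfb+/+ against WT turned to 0.68 with WT arrays 1 and 2 only. In the second cross same-numbered arrays share only a number, and the replicate block changed no call of a member there (4 called). Signal limits Hdac8 and the other 4 dim probe sets. Across all probe sets, quantile normalization moved the called ones in Cbfb+/MYH11 to 2176 higher and 1699 lower, against 3701 and 687, and in Cbfb-/- to 1719 and 1575, against 2411 and 891. In Cbfb+/MYH11 centred arrays gave 4410 and 457, and leaving out WT array 3 gave 4198 and 812. On arrays 1 and 2 of the first cross 4581 of all 12190 were called higher and 954 lower. On its arrays 3 and 4 these were 3002 and 765. There the difference of the effects gave 2153 positive and 1839 negative calls. Member counts in these settings are not read as particular to these genes.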
